A study of Mus musculus with 12 samples.

Results

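The sialidases Neu1, Neu2 and Neu3 are 3 of the 84 genes on a quantitative PCR panel of mouse glycosylation genes, and were taken by name from the panel. Sialidases remove terminal sialic acids from glycoproteins and glycolipids, the step opposite to that of the sialyltransferases. Neu1 is the lysosomal sialidase, which is held in a complex with cathepsin A and is also found at the cell surface. Neu3 is a plasma membrane enzyme that prefers gangliosides, and Neu2 is cytosolic. In human monocytes, Neu1 and Neu3 are known to increase as the cells become dendritic cells.

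Transcripts were measured in 4 groups of mouse cells: TGF-beta-treated DC2.4 cells, unstimulated DC2.4 cells, type 1 dendritic cells (DC1) from tumors, and DC1 from spleens. DC2.4 is a purchased immortalized dendritic cell line, and treatment lasted 4 days at a dose given as 2.5 ng/ml in one protocol and 10 ng/ml in another. Tumor DC1 were sorted from subcutaneous MCA101 fibrosarcomas. Their labels name CD103, and those of splenic DC1 name XCR-1, so that marker and tissue cannot be told apart. The labels give no strain or age and do not say whether animals were pooled or whether spleen donors carried tumors. Each group had 3 deposited files, of which the third was computed from the first 2, so that n = 2 measured samples per group and 8 in all. No label ties them to separate cultures or animals, so p-values cover sample-to-sample spread only, part or all of which may be technical. For DC1, the authors' deposited table of fold changes runs opposite to the Ct files for Neu1 and Neu3, and the deposited data do not settle which holds. Groups are given here as labelled, and tests between DC1 and DC2.4 cells are also given with tumor and splenic labels exchanged, an alternative added after the data were seen. Of 18 markers listed for dendritic cells, macrophages, lymphocytes and fibrosarcoma cells, 0 are on the panel, so cell identity could not be checked. Threshold cycles (Ct) under 35 were found for 64 to 76 panel genes per sample, and the mean Ct of the 5 reference wells lay between 16.96 and 24.32. These are bulk samples, in which fewer cells of a type and less RNA per cell cannot be told apart.

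In the RefSeq annotation of GRCm38.p6, Neu1 lies on chromosome 17 (34931253 to 34937297), Neu3 on chromosome 7 (99811434 to 99828457) and Neu2 on chromosome 1 (87574027 to 87597845). The promoters of Neu1 and Neu3 are shown because the results turn on the balance of this pair. Each window is 300 bases long and spans the annotated start, written 5′ to 3′ on the gene's strand, with the 4 letters AGAC or their reverse complement GTCT in capitals, the core that SMAD proteins downstream of TGF-beta are known to bind. The Neu1 window is chr17:34931003-34931302 on the plus strand, and the Neu3 window is chr7:99828368-99828667 on the minus strand.
Neu1 promoter: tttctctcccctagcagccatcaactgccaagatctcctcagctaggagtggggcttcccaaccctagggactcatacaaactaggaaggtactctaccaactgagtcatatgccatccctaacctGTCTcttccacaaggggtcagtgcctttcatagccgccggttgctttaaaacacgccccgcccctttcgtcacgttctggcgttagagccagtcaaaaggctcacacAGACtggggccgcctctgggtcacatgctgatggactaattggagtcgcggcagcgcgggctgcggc
Neu3 promoter: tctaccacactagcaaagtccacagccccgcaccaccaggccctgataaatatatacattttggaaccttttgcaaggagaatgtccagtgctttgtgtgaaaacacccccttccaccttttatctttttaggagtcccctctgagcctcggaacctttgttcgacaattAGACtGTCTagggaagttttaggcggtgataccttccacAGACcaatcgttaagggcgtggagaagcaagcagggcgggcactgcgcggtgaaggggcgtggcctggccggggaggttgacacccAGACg
The core occurs 2 times in the Neu1 window and 4 times in the Neu3 window, and in 88.0% of all 32851 RefSeq promoter windows of this length. GGGCGG, the GC box, occurs 1 time in each on either strand, and in 35.7% of all windows. Neither window holds TATAAA (13.6% of all windows) or CACGTG, the centre of the motif known for lysosomal genes (7.15%). These matches are letters in a window, and binding was not measured.

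Neu1 was the sialidase read at the lowest Ct in 6 of the 8 samples. Levels are given below in log2 units, by subtracting the gene's Ct from the average Ct of the 5 reference wells, so that higher values stand for more RNA. Neu1 levels were -2.51 and -0.39 in TGF-beta-treated DC2.4 cells, against -4.28 and -4.63 in unstimulated cells. In DC1 they were -5.61 and -6.57 in tumor samples, against -3.28 and -3.77 in splenic samples. Both treated samples thus lay above both unstimulated samples, and both tumor samples lay below both splenic samples. Ordered by group mean, Neu1 was highest in TGF-beta-treated DC2.4 cells (-1.45 ± 1.49, SD, n = 2), then in splenic DC1 (-3.52 ± 0.35), unstimulated DC2.4 cells (-4.45 ± 0.24) and tumor DC1 (-6.09 ± 0.67). No 2 groups overlapped, as in 5 of 62 genes tested (8.06%), and the splenic and unstimulated groups, set against each other below, did not pass the test. With the DC1 labels exchanged, splenic and tumor DC1 would trade places in this order and those that follow.

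Neu3 was read at a higher Ct than Neu1 in every sample, at 33.0 and 27.3 in TGF-beta-treated and 28.9 and 25.9 in unstimulated DC2.4 cells, and at 31.7 and 32.0 in tumor and 31.7 and 33.8 in splenic DC1. Its log2 relative levels were -10.97 and -10.34 in TGF-beta-treated DC2.4 cells, against -8.23 and -8.99 in unstimulated cells. They were -7.81 and -9.54 in tumor DC1, against -9.36 and -9.47 in splenic DC1. Both treated samples lay below both unstimulated samples, whereas the tumor and splenic samples overlapped, the 2 tumor samples lying on either side of the splenic pair. The group means ran from unstimulated DC2.4 cells (-8.61 ± 0.53, SD, n = 2) through tumor DC1 (-8.67 ± 1.22) and splenic DC1 (-9.41 ± 0.08) to treated DC2.4 cells (-10.66 ± 0.45). The first 3 of these overlapped with their neighbours, and the treated DC2.4 cells lay apart. Treated and unstimulated samples did not overlap in 39.1% of genes tested, and the share with 1 group apart from all others was not counted.

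Neu2 varied most between samples. In DC1 it was read at a Ct of 32.8 in 1 tumor sample and had a blank well, counted as not detected, in the other, against 26.2 and 26.8 in the splenic samples. In DC2.4 cells the wells read 23.8 and 34.5 with TGF-beta, against 41.1, which is past the limit of 35 cycles, and 33.8 without. The splenic samples were thus the only pair with an early Neu2 signal in both, and the treated pair disagreed by over 10 cycles. The third deposited treated file, which in 79 of 89 wells was the mean of the first 2 divided by 1.08, held 31.9 for Neu2, which is the second sample's 34.5 divided by 1.08 alone. The 23.8 of the first sample is therefore not behind the third file, and Neu2 was left out of the DC2.4 comparison. Kept in, it gave a log2 fold change of 5.97 ± 6.03 (SE, limma adjusted p = 0.79). A further panel sialidase, Neu4, which was named after its values were seen, was past 35 cycles in all 8 samples (35.7 to 39.6).

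**Figure D1:**
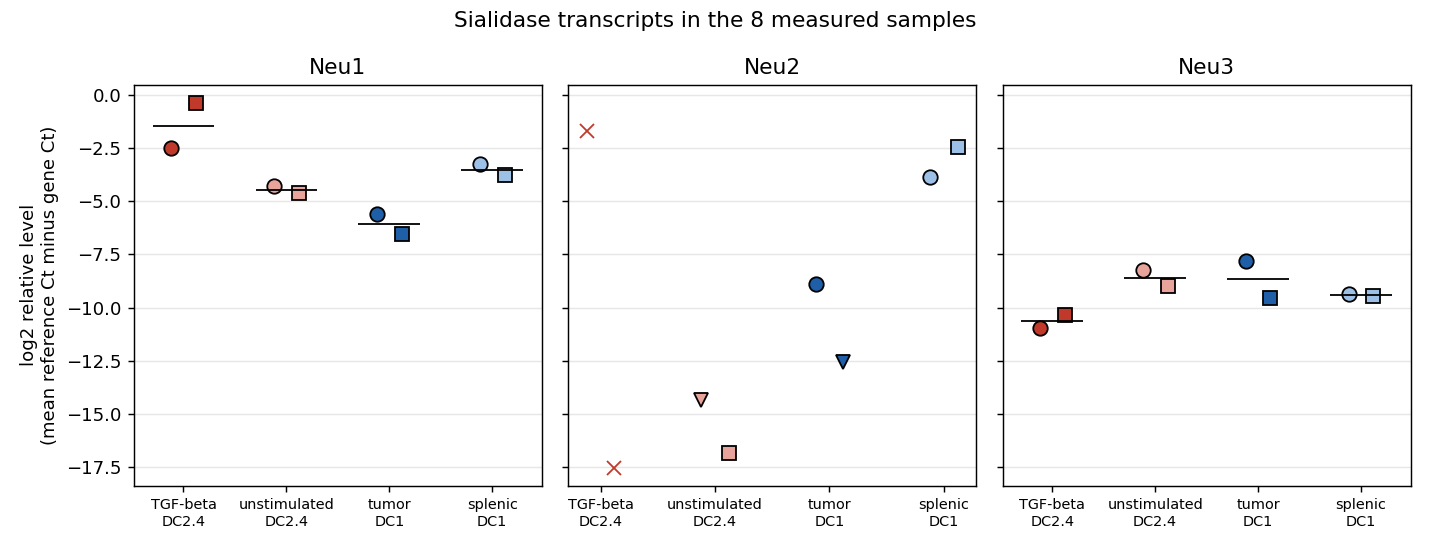
Log2 relative level (average reference Ct minus gene Ct, 5 reference wells) of each sialidase in each measured sample, with circles for replicate 1, squares for replicate 2 and lines for group means. Triangles are upper bounds for wells blank or past 35 cycles, and crosses are the treated Neu2 wells left out of the test. Neu1 is highest with TGF-beta and lowest in tumor DC1, Neu2 stands high in both splenic samples, and Neu3 is lowest with TGF-beta.

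The first comparison asked how the sialidases differed in DC2.4 cells under TGF-beta. Neu1 was 8.02-fold higher in treated than in unstimulated cells (log2 fold change 3.004 ± 0.87 SE, n = 2 per group, 95% interval 0.52 to 5.49), and this did not pass the limma test over 69 genes (unadjusted p = 0.029, adjusted p = 0.20). Neu3 was 4.13-fold lower (log2 fold change -2.04 ± 0.54, interval -3.57 to -0.52), with an unadjusted p of 0.021 and an adjusted p of 0.16 by limma. The groups did not overlap in either gene, as in 39.1% of the genes tested. Of the 69 genes, 0 (0.0%) were called by limma, and 11 had an unadjusted p under 0.05. Neu1 ranked 12th from the top and Neu3 was the second lowest, while the median gene had a log2 fold change of 0.29. Relative to that median it was 2.72 for Neu1 and -2.33 for Neu3. Neither sign changed with any of 7 choices of reference (Neu1 2.37 to 3.51, Neu3 -2.68 to -1.54). Single samples moved these values. For Neu1 the log2 fold change was 4.06 without treated replicate 1 and 1.95 without treated replicate 2. It was 3.18 without unstimulated replicate 1 and 2.83 without unstimulated replicate 2. For Neu3 it was -1.73, -2.36, -1.67 and -2.42 in the same order. Whether the limma test was passed varied between these fits, in which 1 group has no spread of its own.

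The second comparison set tumor DC1 against splenic DC1. Every sign in it turns if the labels are exchanged. Neu2 was lower in tumor DC1, with a log2 fold change of -7.56 ± 1.22 (SE, n = 2 per group, limma adjusted p = 0.015) when the blank well was set to 35 cycles, the lowest of 62 genes tested. From the measured tumor well alone the log2 fold change was -5.72 (limma adjusted p = 0.014). It was 1 of 5 genes called, which is 8.06% of those tested, and all 5 were lower. Neu1 was 5.94-fold lower in tumor DC1 (log2 fold change -2.57 ± 0.67, interval -4.16 to -0.98) and missed the threshold (limma adjusted p = 0.062). Its log2 fold change was -2.32 without splenic replicate 1, -2.82 without splenic replicate 2, -3.05 without tumor replicate 1 and -2.09 without tumor replicate 2. Here too, whether the limma test was passed varied between fits in which 1 group has no spread of its own. Neu3 differed by a log2 fold change of 0.74 ± 0.76 (limma adjusted p = 0.70), with an interval of -1.07 to 2.55 that leaves room for a change either way. Tumor and splenic samples did not overlap for Neu1 and Neu2, as in 48.4% of genes tested.

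The reference wells did not shift together between the DC1 groups. Actb read 20.9 and 19.1 cycles in tumor DC1, against 20.3 and 21.9 in splenic DC1. The well placed as Gapdh read 25.7 and 24.1 cycles in tumor DC1, against 22.2 and 24.1 in splenic DC1, and with that well alone the log2 fold change was -0.60 for Neu1 and 2.71 for Neu3, and Neu3 then passed the limma test (adjusted p = 0.013). With Actb alone it was -3.49 for Neu1, which then passed (adjusted p = 0.0051), and -0.18 for Neu3, and the median of all genes spanned -1.32 to 1.58 over the 7 references. Neu2 was lower under all 7 (-8.49 to -5.59), passing the test each time. Neu1 was also lower under all 7 and passed under 4, whereas Neu3 was positive under 5 and negative under 2. The fits on Actb alone or on the wells placed as B2m, Gapdh or Gusb gave Neu1, Neu2 and Neu3 the same SE. That SE was 1.01 with Actb, 0.84 with Gapdh and 0.52 with Gusb. All genes of such a fit share the noise of 1 well, so passing in it adds little. Relative to the median gene, the log2 fold change in tumor DC1 was -2.18 for Neu1, -7.17 for Neu2 and 1.14 for Neu3, whichever reference was used. Neu2 was -5.72 without tumor replicate 2, the blank well, and -9.40 without tumor replicate 1.

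**Figure D2:**
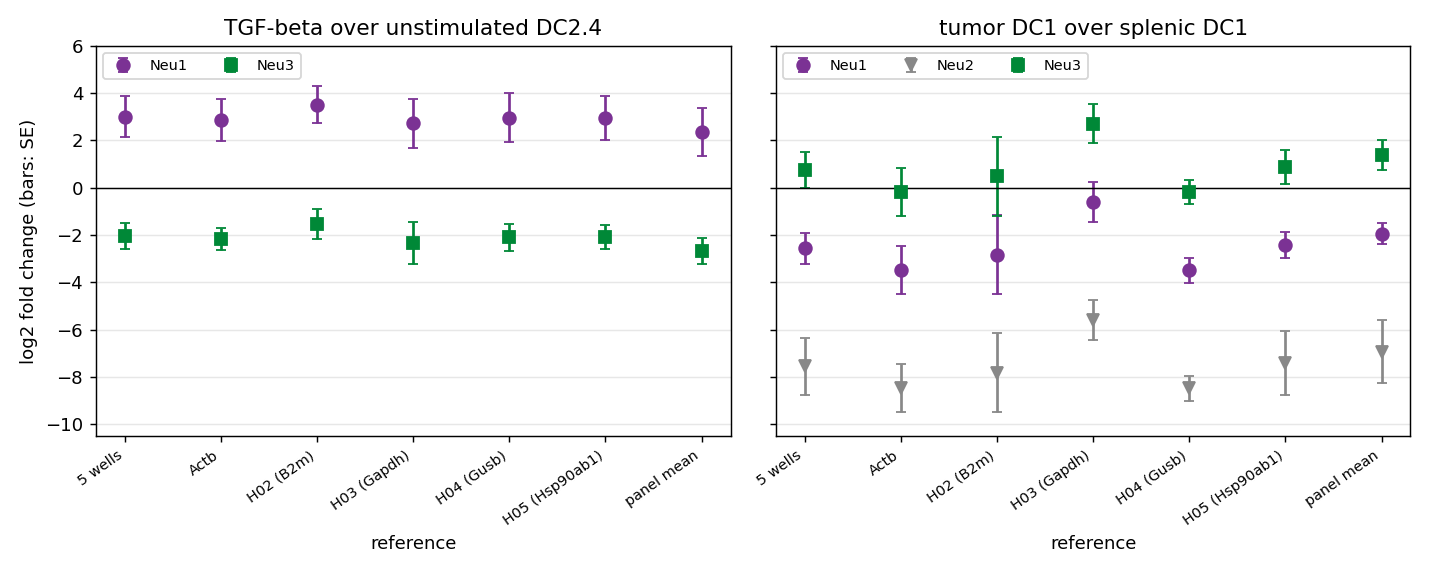
Log2 fold change (bars, SE) of each tested sialidase in both comparisons under 7 references: the mean of the 5 reference wells, each well alone, and the mean of the panel genes. With TGF-beta, Neu1 stays above and Neu3 below zero throughout; in tumor DC1, Neu1 and Neu2 stay below zero and Neu3 falls on either side.

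**Figure D3:**
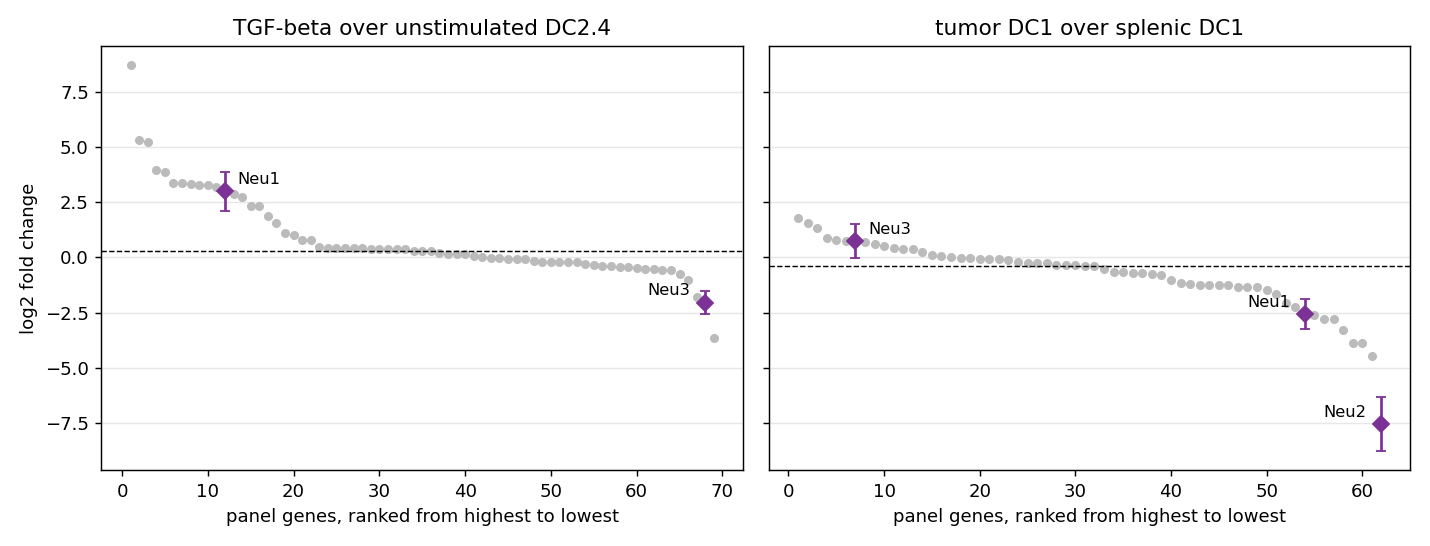
Log2 fold change of every tested gene, ranked from highest to lowest in each comparison (69 genes for TGF-beta, 62 for tumor DC1), with the sialidases as diamonds with SE bars, other genes as grey points and the median gene as a dashed line. Neu1 lies high and Neu3 low with TGF-beta, and Neu2 is the lowest gene in tumor DC1.

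The balance between Neu1 and Neu3 was read as the Ct of Neu3 minus the Ct of Neu1 within a sample, a log2 difference in which reference wells cancel. Primer efficiencies are not given in the sources used here, so the value is compared between samples and is not a ratio of abundances. It was 8.47 and 9.94 cycles in TGF-beta-treated DC2.4 cells, against 3.95 and 4.36 in unstimulated cells. It was 2.19 and 2.97 in tumor DC1, against 6.09 and 5.70 in splenic DC1. No 2 of the 4 groups overlapped, as for 4 of 61 genes set against the Neu3 well (6.56%). By the labels, the balance leaned most to Neu1 in treated DC2.4 cells (mean 9.20 ± 1.04, SD, n = 2), then in splenic DC1 (5.89 ± 0.27), unstimulated DC2.4 cells (4.16 ± 0.29) and tumor DC1 (2.58 ± 0.55).

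The balance shifted towards Neu1 with TGF-beta, by 5.05 ± 1.00 (log2, SE), a 33.1-fold change in the ratio of the pair, with a limma adjusted p of 0.0063. The fit set every gene against the Neu3 well, and in it 15 of 68 genes (22.1%) were called and 89.7% did not overlap, so a shift against Neu3 was common on the panel. In tumor DC1 the balance shifted away from Neu1 relative to splenic DC1, with a log2 difference of -3.31 ± 1.05, a 9.94-fold change (limma adjusted p = 0.014), among 11 of 61 genes called (18.0%) and 52.5% that did not overlap. The noise of the Neu3 well is shared by all genes of such a fit. In the one for tumor DC1, Neu1 and Neu2 were given the same SE of 1.05, so passing in it adds little. The balance was also entered as 1 more row of the fit on the reference wells, chosen after the data were seen. Its limma adjusted p was then 0.045 for TGF-beta, with 6 of 69 values called against 0 without that row. For tumor DC1 it was 0.015, with 6 of 62 called against 5. The exact permutation test over samples gave p = 0.33 for each comparison, the smallest that 2 samples against 2 allow. Over all 4 groups, an exact permutation test also chosen after the values were seen gave p = 0.0095, the smallest of 105 arrangements. Any value in which no 2 groups overlap gives this same p. It therefore only restates the lack of overlap, which was found for 4 of 61 genes set against the Neu3 well (6.56%).

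Both shifts rest on few samples. With TGF-beta the shift lay between 4.31 and 5.79 when single samples were left out. In tumor DC1 it lay between -3.70 and -2.92. Each limma call was lost in most of these fits, in which 1 group has no spread of its own.

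**Figure D4:**
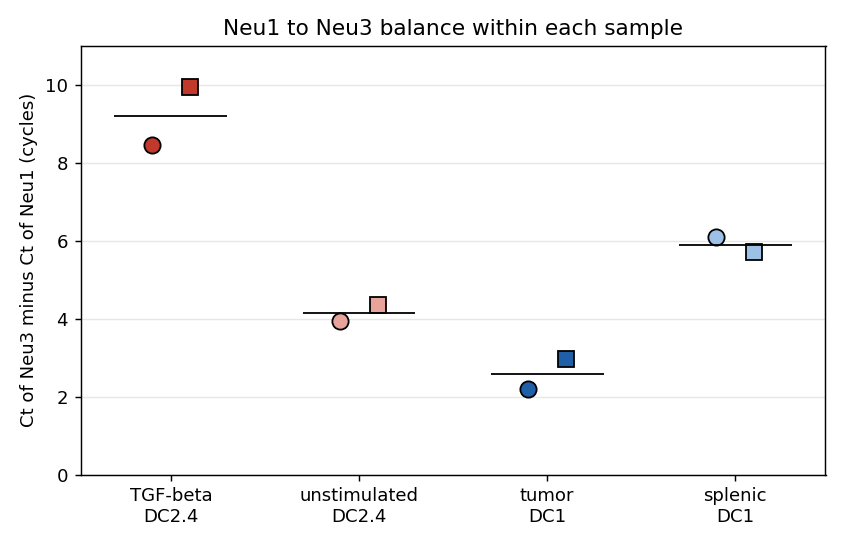
Ct of Neu3 minus Ct of Neu1, in cycles, in each measured sample, with circles for replicate 1, squares for replicate 2 and lines for group means. A higher point means more Neu1 relative to Neu3. Treated DC2.4 samples stand at 8.47 and 9.94, and tumor DC1 samples lowest, at 2.19 and 2.97.

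Neu2 was set against Neu1 in the same way, as the Ct of Neu1 minus the Ct of Neu2, with no test. It was -3.26 and at most -5.99 in tumor DC1, against -0.58 and 1.33 in splenic DC1, so the balance lay further from Neu2 in both tumor samples. In DC2.4 cells it was 0.79 and -17.13 with TGF-beta, where the first value rests on the well left out above, against at most -10.08 and -12.19 without.

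A fit on all 8 samples tested whether the tumor and TGF-beta effects differed. The tumor effect minus the TGF-beta effect was -5.57 ± 1.06 for Neu1 (log2, SE), with a limma adjusted p of 0.0023, among 11 of 62 genes called (17.7%), 10 lower (16.1%) and 1 higher (1.61%). For Neu3 it was 2.79 ± 0.98, which did not pass (limma adjusted p = 0.085), and 1.92 to 3.65 with single samples left out. For the balance the difference was -8.36 ± 1.53 (limma adjusted p = 9.25e-07, with 30 of 61 genes, 49.2%, called), and the adjusted p was 0.00015 as 1 row of the fit on the reference wells. All genes of the fit against the Neu3 well share its noise, so passing in that fit adds little. The differences of effects rest on the direction of the DC1 labels. With the labels exchanged, the difference was -0.43 for Neu1 (limma adjusted p = 0.89), 1.30 for Neu3 (0.73) and -1.74 for the balance (0.71), none of which passed. The treatment and the tissue also differ in cell source and culture, which cannot be told apart from them in these differences.

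Set directly against each other in that fit, tumor DC1 had 24.9-fold less Neu1 than TGF-beta-treated DC2.4 cells (log2 fold change -4.64 ± 0.75, limma adjusted p = 0.00053) and 3.95-fold more Neu3 (1.98 ± 0.69, limma adjusted p = 0.049), among 21 of 62 genes called (33.9%), 14 lower (22.6%) and 7 higher (11.3%). The Neu3 call was lost without treated replicate 1 (log2 fold change 1.66, limma adjusted p = 0.19) and without tumor replicate 1 (1.12, adjusted p = 0.41), and also, at 1.98, without either unstimulated sample (adjusted p = 0.062) or either splenic sample (adjusted p = 0.067), which enter through the shared spread. With the DC1 labels exchanged, neither passed: the log2 fold change was -2.07 for Neu1 (limma adjusted p = 0.069) and 1.24 for Neu3 (0.23). Between the controls, splenic DC1 and unstimulated DC2.4 cells, neither gene passed: the limma log2 fold change was 0.93 ± 0.75 for Neu1 and -0.80 ± 0.69 for Neu3 (adjusted p = 0.47 for both), with 8 of 62 genes called (12.9%). With the labels exchanged these were -1.64 for Neu1 (limma adjusted p = 0.15) and -0.06 for Neu3 (0.96).

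The authors' deposited table gives 3 folds per gene and comparison. For TGF-beta it lists 3.42, 2.15 and 11.11 for Neu1, 2.71, 1.7 and 1.66 for Neu2, and 0.15, 0.09 and 0.27 for Neu3. For Neu4, which was past 35 cycles in all 8 samples, it lists 2.71, 1.7 and 1.86. The folds 2.71 and 1.7 are thus shared by Neu2 and a gene not detected here, and whether they measure Neu2 was not tested. The Neu1 and Neu3 folds of the authors' deposited table lie on the same sides of 1 as those computed here. For tumor DC1 the authors' deposited table lists 5.02, 4.60 and 4.68 for Neu1, 1.12, 1.06 and 1.12 for Neu2, and 0.467, 0.446 and 0.464 for Neu3. These Neu1 and Neu3 folds lie on the opposite sides of 1 from the Ct files as labelled, and its Neu2 folds are near 1, where the files gave a log2 fold change of -7.56, or -5.72 from the measured tumor well alone. In log2 units, Neu1 over Neu3 in the authors' deposited table comes to 4.51, 4.58 and 5.36 for TGF-beta and to 3.43, 3.36 and 3.34 for tumor DC1. Why the table and the files differ was not tested.

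The genes that add sialic acid were set beside the sialidases. Of 8 sialyltransferases on the panel, 6 were tested with TGF-beta and 0 were called, 4 with positive and 2 with negative values, at a median log2 fold change of 0.66 against 0.29 for all genes tested. The largest values were those of St8sia2, a polysialyltransferase (5.23 ± 2.75 SE, limma adjusted p = 0.55), and St8sia6 (3.98 ± 3.87), while St6gal1, which adds alpha-2,6-linked sialic acid to N-glycans, had -0.19 ± 0.63 and St3gal1, which caps O-glycans, had -0.03 ± 0.50. In tumor DC1, 3 were tested and 0 called, at a median of -0.07 against -0.39 for all genes, with -1.15 ± 0.62 for St3gal1, 0.79 ± 0.80 for St6gal1 and -0.07 ± 0.76 for St3gal2.

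Other lysosomal glycosidases showed no call in either comparison. All 8 on the panel were tested. With TGF-beta 2 had positive and 6 negative values, at a median log2 fold change of -0.45, and Glb1, the beta-galactosidase of the Neu1 complex, had 0.36 ± 0.67 (SE). In tumor DC1 3 had positive and 5 negative values, at a median of -0.14, with 2 at an unadjusted p under 0.05, and Glb1 had -0.26 ± 0.66. Fuca1, the lysosomal alpha-fucosidase, had -1.80 ± 0.69 with TGF-beta (limma adjusted p = 0.34) and 1.77 ± 0.71 in tumor DC1 (adjusted p = 0.21). Its tumor effect exceeded its TGF-beta effect by 3.57 ± 1.00 (limma adjusted p = 0.025), a difference of the same sign as that of Neu3.

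Across the 8 samples, the level of Neu1 was most like those of B4galt1 (Pearson r = 0.938), Mgat5 (0.891) and Galnt6 (0.887), among 56 genes under 35 cycles in all samples. Neu3 was most like Fuca1 (0.698), Ogt (0.626) and Fuca2 (0.583), and Neu2, with late wells at 35 cycles and both treated wells included, was most like B3gnt8 (0.836) and Pofut2 (0.766). Between Neu1 and Neu3 r was -0.625. These are descriptions over 8 samples that share their reference wells and fall into 4 groups, and B4galt1, Mgat5 and Galnt6 add sugars in the Golgi rather than remove them in the lysosome.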

How the data were processed

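The deposited sample files hold a Ct for each well of a 96-well plate, which is log2 in scale and lower for more template; per the file headers, baselines were set over cycles 3 to 15 and the threshold line at 0.2. The deposited series matrix holds Ct minus that of Actb, also log2, and the authors' deposited table holds a ratio (fold change) of test over control, whose header says no more than normalization to beta-actin. Per the labels' protocols, 50 to 100 ng RNA was reverse transcribed and amplified with SYBR Green.

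Wells were named by matching plate positions to the series matrix within 0.002 cycles. Only Actb is named among the reference wells, and B2m, Gapdh, Gusb and Hsp90ab1 follow the manufacturer's usual layout. In 2 files (splenic 3 and tumor 2) values stood 1 well early and were moved. This raised the correlation with splenic replicate 1 to 0.970 and 0.840, against 0.336 and 0.403 as deposited. In 319 of 355 wells file 3 of a group equalled a constant times the mean of files 1 and 2, so it was left out, as were genes whose wells broke this relation. For splenic DC1, genes were also left out where wells G06 to G12 of the first file held whole numbers or repeated values. St8sia4 and Uggt1 were left out on that ground.

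Ct past 35 and blank wells were set to 35. The gene's Ct was subtracted from the average of the 5 reference wells and tested with limma 3.58.1 in R 4.3.3 (lmFit, eBayes, two-sided), over genes under 35 cycles in at least 2 samples, with Benjamini-Hochberg adjustment over all genes tested and a threshold of 0.05. The number of samples limits the precision. The fits were tested on simulated data. Tables and plots used Python 3.11.15, pandas 2.3.3, numpy 2.4.6 and matplotlib 3.10.9. Promoter sequences are from RefSeq. The 3 sialidases were always named; per list the 3 largest changes and St6gal1, St3gal1 and Glb1 could be named, and per sialidase the 3 genes of highest correlation, of which 1 is not reported here. Members and lists were chosen with earlier results of these data known. Alternatives changed the reference, late Ct, filter, samples, variance model and source of values.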

Additional observations from a re-analysis of the deposited data

Results flagged for a closer look

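The Neu1 effect of tumor DC1 over splenic DC1 differed from that of TGF-beta over unstimulated DC2.4 cells by -5.57 on the log2 scale. Its limma adjusted p was 0.0023, among 11 of 62 genes called (17.7%). Both tumor samples lay below both splenic samples, where 48.4% of genes tested did not overlap in either direction. Both treated samples lay above both unstimulated ones, where 39.1% did not overlap. The Neu1 to Neu3 balance differed between the same effects by -8.36 (limma adjusted p = 9.25e-07, with 30 of 61 genes, 49.2%, called). All genes of that fit share the noise of the Neu3 well, so passing in it adds little. As 1 row of the fit on the reference wells, the limma adjusted p of the balance was 0.00015. Both differences rest on the direction of the DC1 labels, which the authors' deposited table reverses for Neu1 and Neu3. With tumor and splenic labels exchanged, the differences were -0.43 for Neu1 (limma adjusted p = 0.89) and -1.74 for the balance (0.71), and neither passed.

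The Neu2 well of treated DC2.4 replicate 1 read 23.8 cycles, a signal in a well that the comparison left out, against 41.1 and 33.8 in unstimulated samples and 34.5 in the other treated sample. Well H06, the genomic DNA control in the manufacturer's usual layout and unnamed in the files, read 34.2 cycles in tumor DC1 replicate 1. It read 40.9 in treated and 44.0 in unstimulated DC2.4 replicate 1 and was blank in the other 5 samples.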

How the results depend on the processing

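The 262 alternative values held 202 on the same side of zero and of the threshold, 29 past it no longer, 19 newly past it, 11 of the other sign, and 1 that moved by more than the spread. No paired analysis was possible because the labels number the samples through the series and no number is shared between groups. With all deposited files, which count the computed files as samples, log2 fold changes were 2.90 (Neu1) and -2.04 (Neu3) for TGF-beta and -2.59 (Neu1) for tumor DC1, all now past the threshold, and -1.66 for Neu2 in tumor DC1, no longer past it; tumor file 3 lists 16.7 cycles for Neu2, which is 1.021 times the mean of 32.8 and a blank counted as 0. Neu3's difference of effects (2.79) passed there too. In the fit on 8 samples Neu1 passed in both comparisons (3.004 and -2.57). Neu1 in tumor DC1 also passed with Actb or Gusb (-3.49 each), Hsp90ab1 (-2.43), the panel mean (-1.94) and a trended robust variance (-2.57). Neu3 passed there with Gapdh (2.71) and turned to -0.18 with Actb and with Gusb. The passes with Actb, Gusb or Gapdh carry the limit of the shared SE given above. With Gapdh, Neu1's difference of effects (-3.32) and Neu1 in tumor DC1 over treated DC2.4 cells (-1.86) no longer passed, while Neu3's difference passed (5.04), as with the panel mean (3.99). Neu1 in splenic DC1 over unstimulated DC2.4 cells turned to -0.11 with Actb and with the series matrix. Series matrix values, in which the tumor 2 file is unmoved and its blank wells count as 0, gave the other sign for Neu1 in tumor DC1 over splenic DC1 (12.14), over treated cells (9.15) and in the difference (9.26), and for Neu3 (-0.89 and -0.57), with Neu2 at -5.86 and not past the threshold. Neu3 in tumor DC1 over treated DC2.4 cells lost its call with Actb (0.14), B2m (1.02), Gusb (1.37), and, at 1.98, with late Ct at 40, no filter, a trended robust variance and broken wells kept (chosen after seeing the data, as were the 1-row fit and the test over 4 groups). With late Ct at 40, Neu2 in tumor DC1 (-10.06) and the tumor balance (-3.31) no longer passed, and the Neu2 to Neu1 difference between tumor and splenic means moved to -7.49, against -4.99. With tumor and splenic labels exchanged, calls were lost in the difference of effects for Neu1 (-0.43) and the balance (-1.74) and in DC1 over treated cells for Neu1 (-2.07) and Neu3 (1.24), and Neu1 over unstimulated cells turned to -1.64. Why the other calls changed was not tested.

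Leaving out 1 sample gave 1.95 to 4.06 for Neu1 and -2.42 to -1.67 for Neu3 with TGF-beta, and -3.05 to -2.09 for Neu1 and -0.12 to 1.61 for Neu3 in tumor DC1, Neu3 changing sign without tumor replicate 1. It gave 1.92 to 3.65 for Neu3's difference, 1.12 to 2.85 for Neu3 in tumor DC1 over treated cells, 4.31 to 5.79 for the TGF-beta balance and -3.70 to -2.92 for the tumor balance; a group left with 1 sample was assumed to vary like the others. With TGF-beta, 0 genes were called, against 13 with all deposited files, 10 in the fit on 8 samples, 7 with trended robust variance and 5 with late Ct left out. In tumor DC1 the 5 calls, 0 higher and 5 lower, became 14 higher and 2 lower with Gapdh, 9 and 11 with the panel mean, 3 and 12 with Hsp90ab1, 0 and 38 with Gusb, 0 and 11 with Actb, 0 and 1 with B2m, 1 and 20 with all deposited files, and 0 with late Ct at 40 (11 at an unadjusted p under 0.05, limma). With 1 sample left out the counts also changed in both comparisons, in fits in which 1 group has no spread of its own. Over all settings, calls ranged from 0 to 19 for the difference of effects (11 as reported), 0 to 31 for splenic DC1 over unstimulated cells (8), 2 to 48 for tumor DC1 over treated cells (21), 0 to 61 for the TGF-beta balance (15), 2 to 25 for the tumor balance (11) and 1 to 54 for the difference in balance (30).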
